A study of Mus musculus with 12 samples.

Results

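The comparison set 3 IL-4/13 libraries directly against 3 Inf libraries, 6 of the 12 RNA-seq libraries of the series, and asked which genes and functions set fibroblasts in the type 2 state apart from fibroblasts in the inflammatory state. The libraries were taken by their treatment labels, and no measured value chose them. All 12 came from 3T3-L1, a mouse embryonic fibroblast line that hormones can turn into adipocytes. IL-4/13 cells received IL-4 and IL-13 at 50 ng/mL each for 24 h. Inf cells received 20 ng/mL TNF-α, 50 ng/mL IL-17A and 0.5 ng/mL IL-1β for the same 24 h. The other 6 libraries, 3 of unstimulated control cells and 3 of cells given both sets of cytokines (IL-4/13 + Inf), shared the estimate of the spread in the fit and are otherwise cited as levels. A line grown alone holds no immune cells or keratinocytes that would answer these cytokines in skin. The labels do not say whether the 3 replicates of a condition were separate cultures, so p-values measure the spread between these libraries, which may be technical.

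IL-4 and IL-13 bind receptors that contain the IL-4Rα chain and act through Janus kinases and the transcription factor STAT6, the pathway of allergic inflammation. TNF-α, IL-1β and IL-17A act through adaptor proteins and kinases that free NF-κB from its IκB inhibitors, and IL-17A also lengthens the life of inflammatory mRNAs. In skin, fibroblasts answer both kinds of signal with chemokines and with changes to the collagen matrix around them.

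The libraries held 13446005 to 20775769 counted reads, and levels are given as CPM, a gene's counts over the TMM-scaled library size in units of 1e6 reads. A value after ± is the SD of 3 libraries unless called SE, and where 3 values stand against 3 others the IL-4/13 libraries come first unless named otherwise. No called gene whose 6 levels are given here had overlapping values in the 2 states. Such separation was common: of 14810 tested genes, 3958 lay without overlap above in IL-4/13 and 3921 in Inf. Only 221 of the 5556 called genes overlapped. The 14 fibroblast markers summed to 15680 to 16530 CPM under IL-4/13 and to 15430 to 16900 CPM under Inf, with all but Fap, at no more than 7 counts in any library, well detected. Control cells had 18090 to 20860 CPM. The near-equal sums hid shifts both ways. Of 13 tested fibroblast markers 4 (30.8%, against 18.0% of all tested genes) were higher in IL-4/13 and 6 (46.2%, against 19.5%) in Inf. Vim was at 3238 CPM under IL-4/13 against 2332 CPM under Inf, and Dcn at 101 against 1756 CPM. The 12 macrophage markers summed to 25.2 to 27.3 CPM under IL-4/13 and to 50.3 to 63.9 CPM under Inf. Of the 6 that could be tested 4 were higher in Inf: Cd14 at 44.7 against 18.7 CPM, Lyz2 at 3.17 against 1.72 CPM, Aif1 at 2.20 against 0.438 CPM and Mrc1 at 2.11 against 0.477 CPM under IL-4/13. The other 2 tested were not called. Csf1r was at 2.98 CPM under IL-4/13 against 2.64 CPM under Inf, and Cd68 at 1.27 against 1.08 CPM. The part of the macrophage markers in the results was not tested. The leukocyte marker Ptprc had at most 5 counts in any library, Adgre1 and Itgam at most 1 and Tyrobp 0. The 8 mature adipocyte markers summed to 13.6 to 20.4 CPM under IL-4/13 and to 29.0 to 32.3 CPM under Inf, nearly all of it Fabp4, while Adipoq had at most 1 count. T cell, mast cell, endothelial and keratinocyte markers had group means between 0.284 and 12.4 CPM in both states. In bulk libraries, fewer cells of a type and less RNA per cell cannot be told apart.

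The 6 libraries separated by state. The first principal component held 75.3% of their variance against 6.99% for the second, and distances between libraries of different states, 86.8 to 95.3, exceeded those within a state, 40.1 to 43.7, on the same log2 CPM scale over the tested genes. Of 14810 genes tested, 5556 (37.5%) were called different with edgeR's quasi-likelihood test, by an adjusted p below 0.05 and a log2 difference beyond 0.25. Of these, 2670 (18.0%) were higher in IL-4/13 and 2886 (19.5%) were higher in Inf. These shares of all tested genes are the background against which the list counts below are to be read. The directions were near balance in number and unequal in size. Beyond a log2 difference of 1, that is beyond 2-fold, 312 genes (2.11%) were higher in IL-4/13 and 845 (5.71%) were higher in Inf. Beyond a log2 difference of 3 the counts were 25 and 135, and beyond 5 they were 3 and 58. The median absolute log2 difference of the called genes was 0.44 for those higher in IL-4/13 and 0.62 for those higher in Inf.

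**Figure D1:**
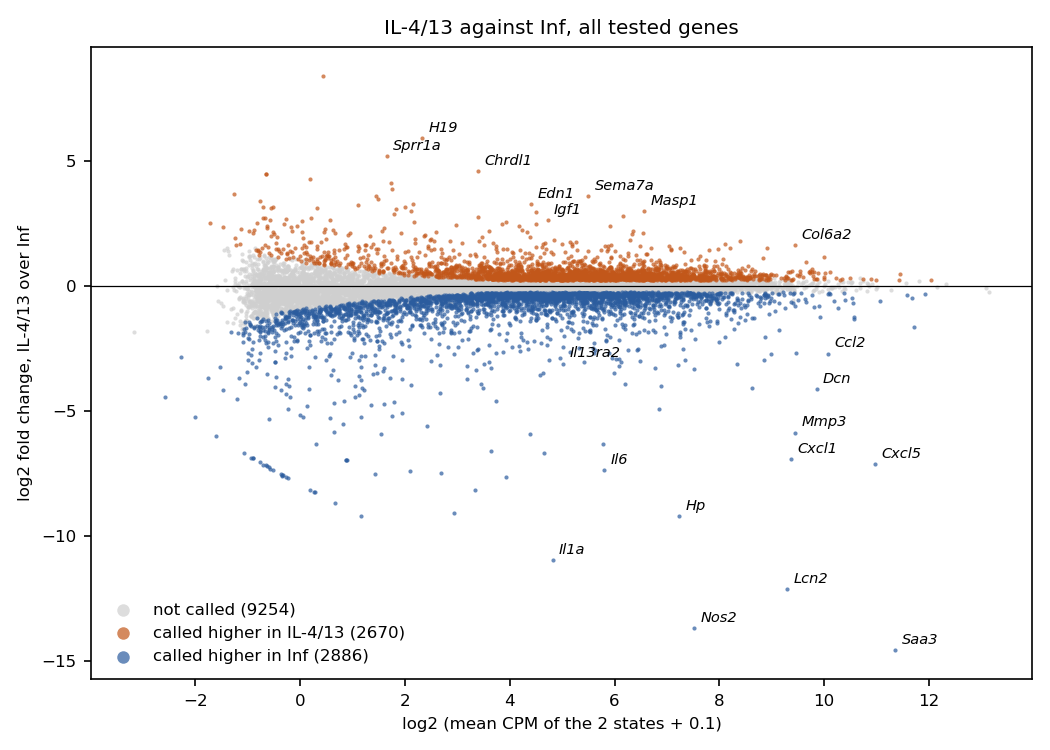
Each point is 1 of the 14810 tested genes, with the log2 of its mean CPM over the IL-4/13 and Inf libraries plus 0.1 on the x axis and the log2 fold change of IL-4/13 over Inf on the y axis. The 2886 genes called higher in Inf reach far below zero, to Saa3 at -14.56, while most of the 2670 called higher in IL-4/13 stay close to zero.

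The share of reads followed the same asymmetry. The 845 genes beyond 2-fold higher in Inf took 1.65% of reads in control cells, 1.64% after IL-4/13, 6.56% after Inf and 5.71% after both (means of 3 libraries, SD at most 0.219). The 312 genes beyond 2-fold higher in IL-4/13 took 1.43% in control cells, 1.56% after IL-4/13, 0.572% after Inf and 0.749% after both (SD at most 0.0312). Set against control side by side, the 312 genes had a median log2 difference of 0.11 in IL-4/13 (quartiles -0.19 and 0.61) and of -1.36 in Inf (quartiles -1.90 and -0.91). The 845 genes had medians of -0.12 in IL-4/13 (quartiles -0.45 and 0.18) and 1.45 in Inf (quartiles 0.97 and 2.45). Both columns share the 3 control libraries, and the sets were chosen on the IL-4/13 and Inf libraries, so these values are descriptive. Among genes with larger differences towards IL-4/13 the IL-4/13 level lay further above control. For the 79 genes beyond a log2 difference of 2 the medians against control were 0.40 in IL-4/13 (quartiles -0.085 and 1.37) and -2.29 in Inf (quartiles -2.93 and -1.43), and the 25 genes beyond 3 took 0.0214% of reads in control cells, 0.0398% after IL-4/13 and 0.00384% after Inf. For the 267 genes beyond 2 towards Inf the medians were 0 in IL-4/13 and 3.14 in Inf.

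The 12 genes with the largest differences towards IL-4/13 were chosen as called genes with a symbol, a mean of at least 5 CPM under IL-4/13 and no overlap between the libraries of the 2 states. H19, an imprinted non-coding RNA, stood at 9.22, 11.5 and 8.45 CPM in the 3 IL-4/13 libraries and at 0, 0.0974 and 0.364 CPM in the Inf libraries. Summed over libraries this was 465 against 8 counts, a ratio of 63.5 (95% counting interval 31.9 to 148). Control cells had 12.4 ± 1.12 CPM of H19, so the IL-4/13 level was close to control and the Inf level was close to zero. Chrdl1, a secreted BMP antagonist, was at 21.2, 22.7 and 15.9 CPM under IL-4/13 and at 0.731, 0.828 and 0.909 CPM under Inf, 24-fold higher in IL-4/13 (log2 difference 4.59), with 4.28 ± 0.748 CPM in control. Masp1, a serine protease of the lectin pathway of complement, was at 171, 172 and 163 CPM under IL-4/13 against 19.2, 22.1 and 21.6 CPM under Inf, 8.01-fold, with 55.3 ± 4.76 CPM in control. Edn1, which encodes the vasoconstrictor peptide endothelin-1, was at 37, 38.9 and 39.5 CPM under IL-4/13 against 3.12, 4.14 and 4.55 CPM under Inf, 9.68-fold, with 7.67 ± 1.43 CPM in control. Chrdl1, Masp1 and Edn1 therefore stood above control in IL-4/13 and below it in Inf.

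Sema7a, a membrane-anchored semaphorin, was at 85, 91.2 and 73.9 CPM under IL-4/13, 5.52, 8.04 and 6.91 CPM under Inf and 67.9, 71.4 and 73.8 CPM in control, 12.1-fold higher in IL-4/13. Its IL-4/13 level was thus close to that of unstimulated cells. Sprr1a, a precursor of the cornified envelope of epidermis, was at 4.13, 7.19 and 6.47 CPM under IL-4/13 against 0.133, 0.146 and 0.182 CPM under Inf, or 276 against 8 counts, a ratio of 37.7 (95% counting interval 18.8 to 88.1). Col28a1, a collagen of the beaded-filament kind, was at 5.52, 6.22 and 6.69 CPM under IL-4/13 against 0.133, 0.487 and 0.364 CPM under Inf. The other 5 of the 12 were Slc14a1 (a urea transporter), Arhgap20 (a GTPase-activating protein), Aoc3 (a membrane amine oxidase), Rerg (a small GTPase) and Lrrc17, with log2 differences of 3.90, 3.30, 3.15, 3.07 and 3.01. Arhgap20 was lower in IL-4/13 (7.87 ± 2.52 CPM) than in control (14.8 ± 0.596 CPM) and lower again in Inf (0.804 ± 0.174 CPM). For all 12 the largest Inf value lay below the smallest IL-4/13 value, which the choice required.

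The 12 largest differences towards Inf were taken by the same rule, with a mean of at least 5 CPM under Inf, so genes at lower levels such as Camp and Cxcl2 were not among them. Saa3, an acute phase apolipoprotein made outside the liver, was at 0.107, 0.13 and 0.441 CPM in the IL-4/13 libraries and at 5628, 4829.5 and 5276 CPM in the Inf libraries. Its 10 counts in IL-4/13 against 270870 in Inf gave a ratio of 24812 (95% counting interval 13492 to 51742), an interval that covers counting error and not the spread between cultures. Nos2, the inducible nitric oxide synthase, had 1 count in the 3 IL-4/13 libraries together and stood at 416, 354 and 331 CPM under Inf. Lcn2, a siderophore-binding antibacterial protein, was at 0.375, 0.0648 and 0.368 CPM under IL-4/13 against 1290.2, 1193 and 1272 CPM under Inf, a ratio of 4573 (95% counting interval 2674 to 8589). Il1a, the alarm cytokine IL-1α, had 1 count in IL-4/13 and 56.8, 54.7 and 57.5 CPM under Inf. Hp, the haemoglobin-binding protein haptoglobin, was at 0.429, 0.259 and 0.882 CPM under IL-4/13 against 331, 289 and 280.4 CPM under Inf, a ratio of 593 (95% counting interval 398 to 926). These 5 genes also had means of at most 0.298 CPM in control, so the Inf state stood apart from control and IL-4/13 alike.

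The remaining 7 were cytokine, chemokine and enzyme genes. Il6 was at 0.589, 0.972 and 0.441 CPM under IL-4/13 against 109, 105 and 117 CPM under Inf, a ratio of 164 (95% counting interval 116 to 240.3). Chi3l1, a chitinase-like protein, was at 0, 0.0648 and 0.441 against 31.5, 31.5 and 27.8 CPM. Csf3 (the granulocyte growth factor G-CSF), Ccl3, Cxcl3, Ch25h (cholesterol 25-hydroxylase) and Mmp12 (an elastase) each had 1 to 3 counts in the 3 IL-4/13 libraries together. In Inf their means were 15.1 ± 1.88, 19.8 ± 1.46, 5.13 ± 0.235, 12.6 ± 0.983 and 8.31 ± 1.95 CPM. The lower ends of the 95% counting intervals of their ratios were 127, 107, 43.4, 67.6 and 53.9. In IL-4/13 + Inf, Cxcl3, Ch25h and Mmp12 stood at 10.1 ± 1.16, 28 ± 2.49 and 21.5 ± 1.95 CPM, above Inf, while Saa3 and Hp stood at 2359 ± 247 and 137 ± 11.9 CPM, below Inf.

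**Figure D2:**
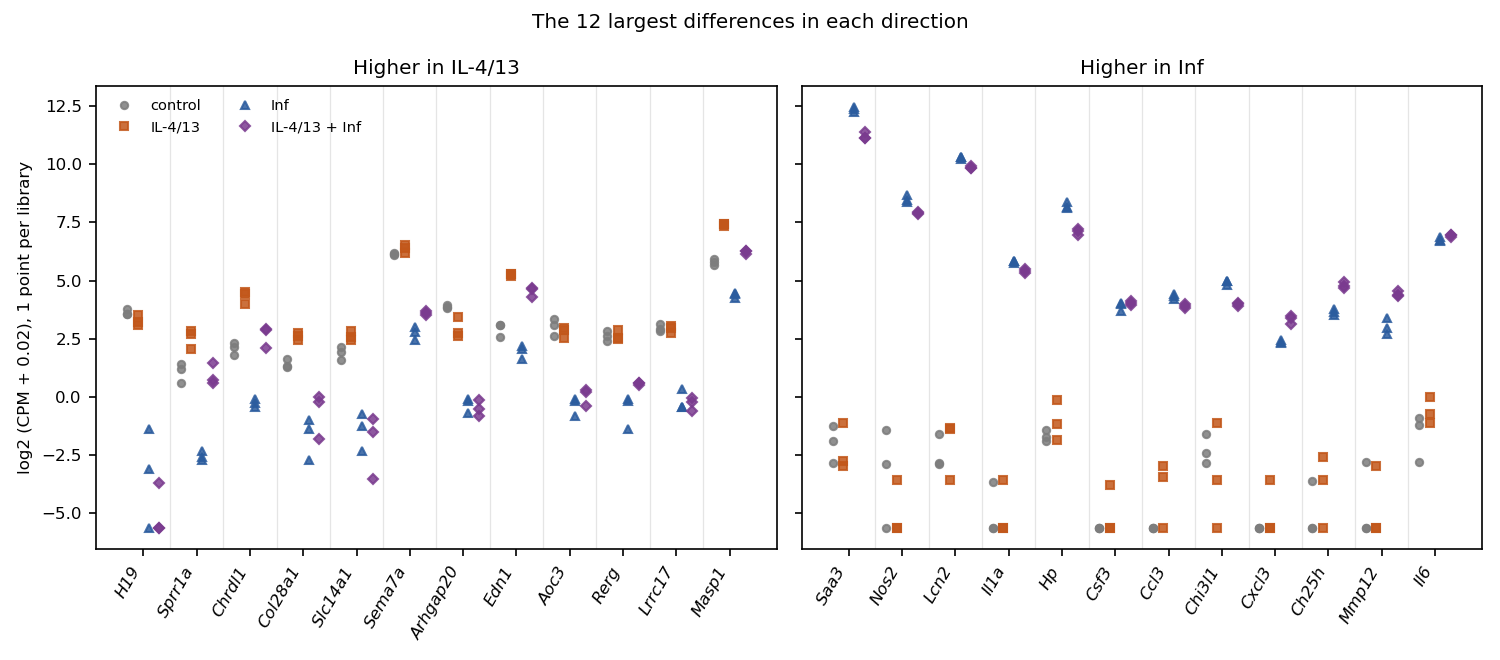
Log2 of CPM plus 0.02 in each of the 12 libraries (1 point per library, y axis) for the 12 genes with the largest difference in each direction (x axis), with the 4 conditions as separate symbols. Inf triangles lie below the IL-4/13 squares in the left panel and far above them in the right panel. In the left panel control circles lie near the IL-4/13 squares for H19 and Sema7a and below them for Chrdl1, Masp1 and Edn1. In the right panel control circles lie mostly far below the Inf triangles.

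The promoters of these 24 genes were looked up among RefSeq promoter sequences of build GRCm38.p6, which run from 250 bases before to 50 bases after a gene's start, and a promoter was found for 6 of the 12 genes of IL-4/13 and for 8 of the 12 genes of Inf. STAT6 and NF-κB motifs were searched on both strands, the first as TTC and GAA with 4 bases between them and the second as GGG and TTTCC with 2 bases between them. The 4 stretches that follow are shown because they hold a match. The other promoters found, among them those of Saa3, Sprr1a and Col28a1, held neither motif. Each runs 5′ to 3′ on the strand of its gene, with the match in capitals.
Edn1: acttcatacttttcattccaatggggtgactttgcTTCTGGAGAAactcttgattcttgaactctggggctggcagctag
Lcn2: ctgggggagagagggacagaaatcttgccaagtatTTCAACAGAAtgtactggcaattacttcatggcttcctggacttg
Cxcl3: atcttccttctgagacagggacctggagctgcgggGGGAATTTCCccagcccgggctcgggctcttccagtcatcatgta
Il6: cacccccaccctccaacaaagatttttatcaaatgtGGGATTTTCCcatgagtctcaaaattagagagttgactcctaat
The Edn1 match is to the STAT6 motif and starts 185 bases before the gene's start, and the stretch is chr13:42301256-42301335 on the + strand. The Lcn2 match is also to the STAT6 motif, 156 bases before the start, at chr2:32387851-32387930 on the - strand. The Cxcl3 and Il6 matches are to the NF-κB motif, 73 and 44 bases before the start, at chr5:90785993-90786072 and chr5:30013034-30013113, both on the + strand. Among all 32851 promoters of the table, 6.95% held the STAT6 motif and 1.63% the NF-κB motif, and among the 12702 promoters of tested genes 5.56% and 1.72% did. Among promoters of the genes beyond 2-fold higher in IL-4/13, 24 of 288 (8.33%) held the STAT6 motif and 6 (2.08%) the NF-κB motif. Among those beyond 2-fold higher in Inf, 45 of 671 (6.71%) held the STAT6 motif and 25 (3.73%) the NF-κB motif. These shares are descriptive, several promoters can belong to the same gene, and a match does not show that a factor bound there.

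The genes of the IL-4 and IL-13 pathway themselves split between the states. Of 19 members tested, 5 (26.3%, against 18.0% of all tested genes) were higher in IL-4/13 and 10 (52.6%, against 19.5%) were higher in Inf. The receptor chains were on the side of Inf. Il4ra, the chain that both cytokines use, was at 53.6, 54.9 and 57.8 CPM under IL-4/13 against 89.6, 87.8 and 82.1 CPM under Inf. Il13ra1, its partner for IL-13, was at 63.5, 59.2 and 58.1 against 123, 134 and 124 CPM. Il13ra2, which encodes a receptor that binds IL-13 and serves as a decoy, was at 5.89, 6.8 and 7.64 CPM under IL-4/13 against 59.9, 52.8 and 60.1 CPM under Inf, 8.57-fold higher in Inf. It stood at 0.38 ± 0.103 CPM in control and 224 ± 7.74 CPM under IL-4/13 + Inf, so both single treatments stood above control. The kinase gene Jak2 and the feedback inhibitor Socs3 were 3.58-fold and 3.78-fold higher in Inf, at 156 ± 12.2 and 200.5 ± 12.6 CPM. The transcription factor gene Stat6 was at 91.9, 96.9 and 88.7 CPM under IL-4/13 against 101, 105 and 109 CPM under Inf and was not called, its log2 difference of -0.19 being inside the limit of 0.25.

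On the side of IL-4/13 were the adaptor Irs1, at 56.9, 52.5 and 56 CPM against 16.3, 19.8 and 17.5 CPM under Inf, and the feedback inhibitors Cish and Socs1. Cish was at 9.97, 12.8 and 12.9 CPM under IL-4/13 against 6.85, 6.09 and 5.33 CPM under Inf, 1.94-fold, and Socs1 at 27.2, 28.3 and 30.7 against 20.3, 19.7 and 20.1 CPM. Cish had 2.64 ± 1.02 CPM in control, so the Inf level was above control as well. Bcl6, a repressor that competes with STAT6 for DNA, was at 36.7 ± 2.08 CPM under IL-4/13 and 27.7 ± 2.62 CPM under Inf.

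A list of textbook type 2 response genes, drawn largely from macrophages and epithelium, had 14 members that could be tested. Of these 7 were higher in IL-4/13 and 5 higher in Inf, with a median log2 difference of 0.31 beside -0.01 over all tested genes. Higher in IL-4/13 were Postn (the matrix protein periostin) at 375, 353 and 384 CPM against 135, 135 and 128 CPM, the nuclear receptor gene Pparg at 22.6, 20.7 and 21.2 against 6.65, 8.96 and 7.52 CPM, and Klf4, a transcription factor, at 50.4, 46.7 and 47.3 against 23.7, 28.1 and 21.8 CPM. Postn was at 446, 412 and 426 CPM in control and Pparg at 19, 17.4 and 17.9 CPM, so IL-4/13 was near control for both and Inf below it. Higher in Inf were Il13ra2, Ccl17, Il33, Vcam1 and Mrc1. Of the list's macrophage genes, Arg1, Retnla, Chil3, Mgl2 and Clec10a had at most 2 counts in any of the 6 libraries.

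The receptors through which the inflammatory cytokines act differed less. Of 18 members tested, 8 (44.4%) were higher in Inf and 0 in IL-4/13 by edgeR. With the size factors of DESeq2 edgeR called 1 member higher in IL-4/13. At an unadjusted p below 0.05, 2 members, Il17rc and Irak1, were higher in IL-4/13. Il17rc, a chain of the IL-17 receptor, was at 62.7, 60.2 and 59.1 CPM under IL-4/13 against 51.3, 52.7 and 49.1 CPM under Inf, a log2 difference at the limit of 0.25 that DESeq2 called at 0.253 and edgeR called without IL-4/13 replicate 2 or 3 or Inf replicate 2. The main IL-1 receptor gene Il1r1, at 106 ± 4.54 and 102 ± 6.56 CPM, and the IL-17 receptor gene Il17ra, at 20.7 ± 2.58 and 20.5 ± 1.86 CPM, were not called, with log2 differences of 0.06 ± 0.055 and 0.01 ± 0.12 (SE). The receptor antagonist Il1rn was at 1.13, 0.907 and 1.76 CPM under IL-4/13 against 6.71, 6.28 and 5.64 CPM under Inf, the second TNF receptor Tnfrsf1b at 53, 51.8 and 51.3 against 120.0, 116 and 114 CPM, and Traf3ip2, the adaptor of the IL-17 receptor, at 14.8, 12.3 and 16.2 against 27.9, 28.2 and 28.1 CPM.

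NF-κB subunits and their inhibitors were the next step of that pathway, and 18 of 21 tested members (85.7%) were higher in Inf, with a median log2 difference of -1.01. None was higher in IL-4/13 by edgeR, by DESeq2 or at an unadjusted p below 0.05. The largest differences were in inhibitors and RNA regulators that NF-κB is known to switch on itself. Zc3h12a, an RNase that degrades inflammatory mRNAs, was at 14.8, 14.9 and 12 CPM under IL-4/13 against 228, 216 and 224 CPM under Inf, 15.9-fold. Nfkbiz, which encodes the nuclear cofactor IκBζ, was at 27.8, 27.8 and 34.7 against 288, 258 and 257 CPM, and Nfkbia, the classical inhibitor IκBα, at 49, 49 and 45.4 against 282, 249 and 279 CPM. Tnfaip3, the ubiquitin-editing enzyme A20, was at 14 ± 1.66 CPM under IL-4/13 and 84 ± 6.13 CPM under Inf, and Tnip3, which binds A20, at 1.38 ± 0.353 and 20.3 ± 0.544 CPM. The subunits differed less, Rela at 79.9 ± 1.65 and 102 ± 3.35 CPM and Relb at 31 ± 1.78 and 53.3 ± 3.06 CPM, and Nfkb1 was not called at 424, 457 and 468 CPM under IL-4/13 against 471, 466 and 459 CPM under Inf. For Nfkb1 the control level was 196 ± 7.09 CPM, below both states.

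Chemokines set the states apart widely, and the CXC and CX3C group had the largest median difference of the 30 functional lists examined. Of 12 CC chemokines tested, 8 (66.7%) were higher in Inf and 1 (8.33%) was higher in IL-4/13. Of 11 CXC and CX3C chemokines, 10 (90.9%) were higher in Inf, and none was higher in IL-4/13 by edgeR, by DESeq2 or at an unadjusted p below 0.05. The medians of the log2 difference were -2.24 and -3.95. The monocyte attractant Ccl2 was at 281, 293 and 289 CPM under IL-4/13 against 1937, 1741 and 1935 CPM under Inf, 6.5-fold higher in Inf, and stood at 67.1 ± 6.25 CPM in control. Its neighbour in function Ccl7 was at 178, 182 and 186 against 742, 706 and 798 CPM, with 37.5 ± 3.34 CPM in control, so for both genes IL-4/13 lay between control and Inf. Ccl8 was at 2.25, 2.27 and 3.01 CPM under IL-4/13 against 13.5, 12.9 and 14 CPM under Inf. Ccl5, an attractant of T cells, was at 21, 18.9 and 20.8 against 208, 181 and 206 CPM, 9.77-fold. Ccl17, a ligand of CCR4 that is read as a type 2 chemokine, was at 1.23, 1.36 and 1.03 CPM under IL-4/13, 1.14, 1.67 and 1.5 CPM in control and 9.9, 7.4 and 12.2 CPM under Inf, 8.0-fold higher in Inf.

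Ccl11, the eosinophil attractant eotaxin-1, was the single chemokine called higher in IL-4/13, at 2.89, 4.15 and 3.38 CPM against 2.86, 1.75 and 2.3 CPM under Inf and 0.40, 0.186 and 0.54 CPM in control. Its values came closest to each other at 2.89 and 2.86 CPM, the log2 difference was 0.61 ± 0.22 (SE) and the adjusted p was 0.0216 by edgeR. Without IL-4/13 replicate 2 the difference was 0.45 at an adjusted p of 0.137, and without Inf replicate 2 it was 0.42 at 0.144, so the call rested on those libraries. In IL-4/13 + Inf Ccl11 stood at 12.3, 11.8 and 10.9 CPM, above each of the other 9 libraries.

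The neutrophil attractants were far apart. Cxcl1 was at 10.6, 11.9 and 10.3 CPM under IL-4/13 against 1275, 1263 and 1407 CPM under Inf, 120.0-fold, and Cxcl5 at 26.1, 27.5 and 32.6 against 3846, 3974 and 4152 CPM, 139.7-fold. Cxcl2 had no count in the 3 IL-4/13 libraries and stood at 0.93, 1.75 and 1.46 CPM under Inf, at least 7.19-fold higher when set against 3 counts per library. Cxcl2 and Cxcl3 share 5.35% and 3.89% of their 50-base stretches with other transcripts, mostly with each other. Cxcl10, a ligand of CXCR3, was at 15.4, 12.9 and 17.1 CPM under IL-4/13 against 80.8, 42.2 and 66.7 CPM under Inf, and Cx3cl1, a membrane-bound chemokine, at 135, 133 and 134 against 884, 880.5 and 871 CPM. Cxcl12, the stromal chemokine, was not called at 334, 331 and 299 CPM under IL-4/13 against 332, 358 and 339 CPM under Inf (log2 difference -0.09 ± 0.045, SE), and Ccl9 and Ccl25 were not called either. Ccl9 was called higher in IL-4/13 without Inf replicate 3 (log2 difference 0.37), with library size alone (0.28) and with no filter (0.26).

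**Figure D3:**
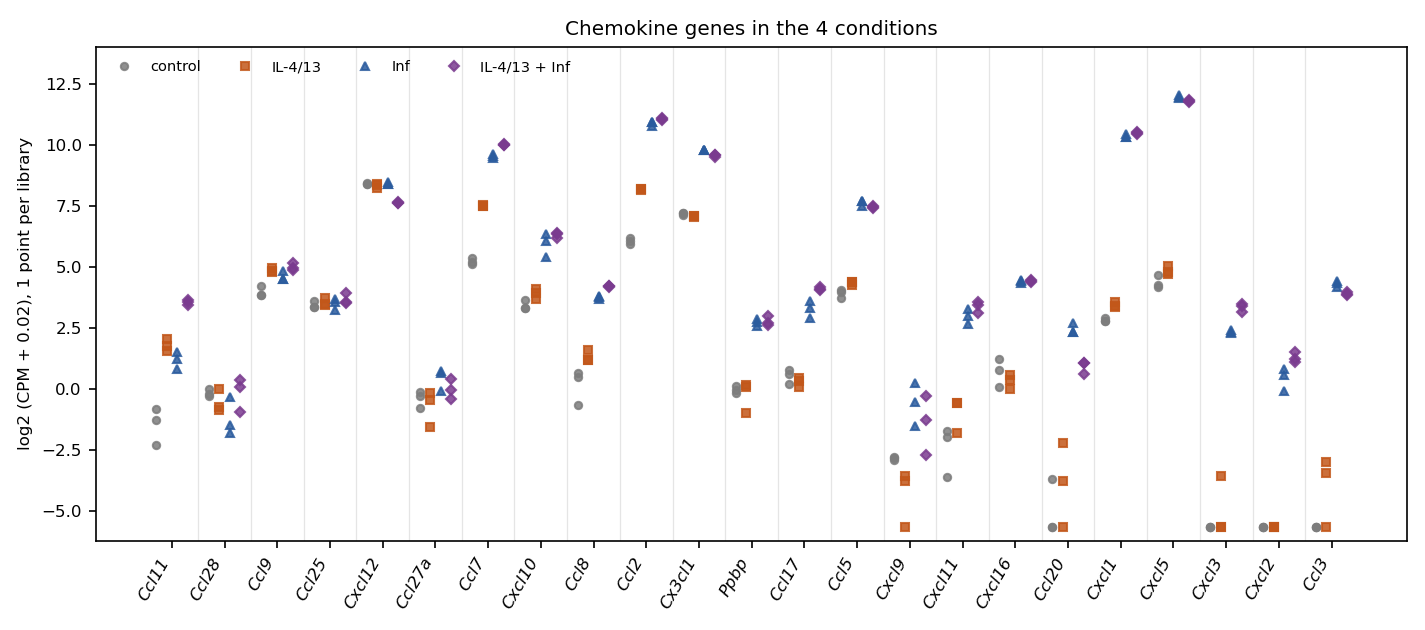
Log2 of CPM plus 0.02 (y axis) of the 23 tested chemokine genes (x axis), ordered by the log2 difference of IL-4/13 over Inf, with 1 point for each library and a symbol for each of the 4 conditions. Inf and IL-4/13 + Inf lie above IL-4/13 for most genes, the IL-4/13 squares lie above control for Ccl2, Ccl7 and Ccl11, and Cxcl12 is at close levels in control, IL-4/13 and Inf.

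Cytokine and growth factor genes of leukocytes showed 2 members (12.5%, below the 18.0% of all tested genes) higher in IL-4/13 and 9 (56.2%) higher in Inf among 16 tested. Kitl, which encodes stem cell factor for mast cells and melanocytes, was at 52.5, 47.1 and 41.8 CPM under IL-4/13 against 21.9, 25.1 and 18.2 CPM under Inf, and Il11 at 10.6, 8.62 and 9.41 against 6.45, 5.41 and 4.91 CPM. On the other side, beside Il6, Il1a and Csf3, the gene of GM-CSF, Csf2, was at 0.429, 0.194 and 0.0735 against 25.9, 22.2 and 26 CPM, Lif at 16, 13.9 and 16.1 against 117, 113 and 113 CPM, and Csf1, the macrophage growth factor, at 652, 653 and 636 against 1184, 1165 and 1103 CPM. Il33, an alarmin of type 2 immunity, was at 0.643, 0.518 and 1.32 CPM under IL-4/13 against 3.85, 5.07 and 5.03 CPM under Inf, and Tslp, at 1.35 ± 0.163 and 1.97 ± 0.248 CPM, was not called. Among the transcripts of the added cytokines, Il1b had at most 4 counts and Tnf at most 3 in any library.

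Acute phase, antimicrobial and complement genes lay mostly with Inf. Of 14 acute phase genes 13 (92.9%) and of 8 antimicrobial genes 6 (75%) were higher in Inf, and none of either list was higher in IL-4/13 by edgeR, by DESeq2 or at an unadjusted p below 0.05. Slpi, a protease inhibitor of mucosal surfaces, was at 7.5, 7.06 and 7.28 CPM under IL-4/13 against 217, 208 and 241 CPM under Inf, 30.4-fold, and Ptx3, a soluble pattern receptor, at 23.6, 27 and 27 against 143, 136 and 165 CPM. The copper carrier Cp was at 188, 178 and 201 against 1206, 1261 and 1172 CPM. Camp, the cathelicidin gene, had no count in IL-4/13 and 3.52, 3.02 and 2.42 CPM under Inf, at least 15.6-fold higher against 3 counts per library. S100a8 had 1 count in IL-4/13 and 2.39, 2.34 and 2.0 CPM under Inf. A subset of the acute phase list was above control in both states: Serpina3g was at 0.296 ± 0.0959 CPM in control, 7.11 ± 0.99 CPM under IL-4/13, 16.1 ± 1.98 CPM under Inf and 53.9 ± 3.33 CPM under IL-4/13 + Inf, and Serpina3h at 0.0814 ± 0.0705, 3.96 ± 0.915, 9.73 ± 0.77 and 38.9 ± 1.55 CPM. The Serpina3 genes are near copies of each other, so how reads were divided among them is uncertain.

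Of 14 complement genes tested, 7 (50%) were higher in Inf and 3 (21.4%, near the 18.0% of all tested genes) in IL-4/13. The central component C3 was at 40.8, 43.1 and 47.4 CPM under IL-4/13, 833, 745 and 644 CPM under Inf and 5.83, 6.57 and 5.88 CPM in control, 17-fold higher in Inf. The proteases of the classical pathway C1ra and C1s1 were at 14.7 ± 1.07 and 10.7 ± 1.73 CPM under IL-4/13 and at 81.7 ± 2.69 and 117 ± 3.68 CPM under Inf, and their inhibitor Serping1 at 4.18, 3.24 and 3.23 against 27, 22.7 and 19.6 CPM. Of C1s1, 24.3% of the 50-base stretches are shared with other transcripts, mostly C1s2. Besides Masp1, the members higher in IL-4/13 were C3ar1, the receptor of the C3a fragment, at 2.99 ± 0.901 and 1.14 ± 0.546 CPM, and Cd55, a decay-accelerating inhibitor with 10.9% of its 50-base stretches shared, mostly with Cd55b, at 5.14, 6.16 and 5.59 CPM under IL-4/13 against 2.66, 2.24 and 1.7 CPM under Inf.

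Among enzymes of prostaglandins, nitric oxide and arginine, 9 of 14 tested members (64.3%) were higher in Inf and 3 (21.4%, near the 18.0% of all tested genes) in IL-4/13. Ptgs2, the inducible cyclooxygenase, was at 177, 181 and 181 CPM under IL-4/13 against 418, 367 and 353 CPM under Inf, and Ptges, the inducible prostaglandin E synthase, at 109, 104 and 116 against 466, 428 and 439 CPM. The constitutive cyclooxygenase gene Ptgs1 went the other way, at 349, 347 and 364 CPM under IL-4/13 against 242, 239 and 234 CPM under Inf. Besides Nos2, the genes that supply it were higher in Inf, with Ass1, which remakes arginine, at 49.3, 49.4 and 45.9 against 156, 174 and 182 CPM and Gch1, which starts the synthesis of its cofactor, at 0.214, 0.0648 and 0.294 against 1.93, 2.05 and 1.58 CPM. Acod1, which makes itaconate, was at 0.322, 0.13 and 0.147 CPM under IL-4/13 against 5.18, 5.84 and 6.06 CPM under Inf. Arg1, the arginase gene that marks type 2 macrophages, had at most 1 count in any library.

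Interferon-stimulated genes were also on the side of Inf, although no interferon was added. Of 44 tested, 39 (88.6%) were higher in Inf and 0 in IL-4/13 by edgeR or DESeq2, with a median log2 difference of -1.01. At an unadjusted p below 0.05, 1 member, Oasl1, was higher in IL-4/13. Without Inf replicate 3 edgeR called 1, and with the size factors of DESeq2 it also called 1. Ifit1, which binds foreign RNA, was at 65.7, 48.1 and 63.8 CPM under IL-4/13 against 298, 179 and 252 CPM under Inf, Isg15 at 83.6, 69.5 and 87.3 against 222, 141 and 212 CPM, Irf7 at 24.3, 21.3 and 24.4 against 71.6, 47.2 and 64.4 CPM and the guanylate-binding protein gene Gbp2 at 23.8, 17.8 and 20.5 against 96, 84.8 and 101 CPM. The libraries moved together within each state: IL-4/13 replicate 2 was the lowest of its group for 35 of the 39 genes and Inf replicate 2 was the lowest of its group for 36, so this list had a wide spread, and the part of this in the result was not tested. Without IL-4/13 replicate 2, 36 members were higher in Inf, and without Inf replicate 2, 39. Ifit3b, among the largest differences, shares 45.0% of its 50-base stretches with other transcripts, mostly Ifit3.

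Genes of antigen presentation followed, with 17 of 20 tested members (85%) higher in Inf and 0 in IL-4/13 by edgeR or DESeq2, while at an unadjusted p below 0.05 1 member, Erap1, was higher in IL-4/13. The MHC class I genes H2-K1 and H2-D1 were at 420.5 ± 14.9 and 515 ± 29.7 CPM under IL-4/13 and 641 ± 27.7 and 802 ± 38.9 CPM under Inf, and B2m, their light chain, at 619, 547 and 589 against 826, 786 and 959 CPM. H2-T22, a non-classical class I gene, was at 9.38, 9.27 and 9.48 CPM under IL-4/13 against 81.9, 71.9 and 75.1 CPM under Inf. Of H2-T22, 35.8% of the 50-base stretches are shared with other transcripts, mostly H2-T10, so its level is uncertain, as may be those of the other class I genes, which resemble each other closely.

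Matrix genes divided between the 2 states. Of 24 collagen genes tested, 13 (54.2%, against 18.0% of all tested genes) were higher in IL-4/13 and 7 (29.2%, against 19.5%) in Inf. The 3 chains of collagen VI, which forms microfibrils around cells, were higher in IL-4/13 together: Col6a1 at 1371, 1382 and 1467 CPM against 651, 646 and 587 CPM under Inf, Col6a2 at 1006, 1033 and 1114 against 355, 347 and 313 CPM and Col6a3 at 356, 288 and 328 against 137, 130.3 and 91.1 CPM. In control Col6a1 was at 1250.4 ± 90.6 CPM, Col6a2 at 976 ± 70.1 CPM and Col6a3 at 358 ± 49.6 CPM, near the IL-4/13 levels. The chains of collagen I were 1.2-fold (Col1a1) and 1.19-fold (Col1a2) higher in IL-4/13, at 2986 ± 121 and 4544 ± 119 CPM, with 3893 ± 470.4 and 5541 ± 427 CPM in control. These calls lay close to the limit and were lost without Inf replicate 3 (log2 differences 0.19 and 0.19) or IL-4/13 replicate 1 (0.24 and 0.24) or 3 (0.24 and 0.23), and that of Col1a1 also without Inf replicate 1 (adjusted p 0.0638 by edgeR) and with a replicate block (adjusted p 0.0525). Towards Inf, Col5a3 was at 68.6, 64.6 and 64.9 CPM under IL-4/13 against 268, 241 and 202 CPM under Inf, Col12a1 at 31.3, 21.3 and 29.3 against 76.8, 68.7 and 49.2 CPM, and Col18a1, the source of endostatin, at 214, 211 and 207 against 428, 416 and 367 CPM. Unlike the collagen I chains, Col3a1 had its higher mean in Inf, at 1721 CPM against 1243 CPM under IL-4/13, with 1733 CPM in control. Without Inf replicate 3 the count of collagens higher in IL-4/13 was 8.

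Matrix glycoproteins had 12 of 29 tested members (41.4%, against 18.0% of all tested genes) higher in IL-4/13 and 8 (27.6%, against 19.5%) higher in Inf. Spon2, a secreted F-spondin relative, was at 39.9, 43.7 and 37.3 CPM under IL-4/13 against 4.05, 5.7 and 5.52 CPM under Inf, 7.82-fold, and the cross-linking enzyme Loxl3 at 200.3, 197 and 199.6 against 71.5, 71.3 and 69.7 CPM. Fbln5, which helps to assemble elastic fibres, was at 123, 119 and 118 against 54.8, 60.1 and 59.9 CPM and Ltbp1, which holds latent TGF-β in the matrix, at 336, 309.6 and 330.1 against 168, 164 and 149.8 CPM. Thbs1, which activates TGF-β and limits vessel growth, was higher in Inf at 2346, 2254 and 1917 CPM against 897, 833 and 892 CPM under IL-4/13, as were Tnxb and Ltbp2 at 2.34-fold and 1.94-fold.

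Small leucine-rich proteoglycans, which bind collagen fibrils, and hyaluronan genes were called about as often as all tested genes. Of 19 tested members, 4 (21.1%, against 18.0% and 19.5% of all tested genes) were higher in each state and 11 were not called. Dcn (decorin) was at 106, 98.7 and 99.7 CPM under IL-4/13, 102, 108 and 99.7 CPM in control and 1708, 1722 and 1839 CPM under Inf, 17.3-fold higher in Inf, and Lum (lumican) at 2.89, 1.75 and 2.13 CPM under IL-4/13 against 22.7, 23.5 and 21 CPM under Inf. Ogn (osteoglycin) was at 132, 124 and 136 CPM under IL-4/13 against 26.5, 32.8 and 33.6 CPM under Inf, Aspn (asporin) at 110.5, 97.5 and 112 against 48.3, 47 and 45 CPM, and Fmod (fibromodulin) at 2.63, 2.2 and 2.35 against 0.465, 0.633 and 0.364 CPM. Bgn (biglycan) was at 3149 ± 89.7 and 2873 ± 66.9 CPM and was not called. The hyaluronan synthase gene Has2, at 21.2 ± 1.29 and 21.6 ± 0.289 CPM, was not called either.

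Most called proteases of the matrix lay with Inf, and their inhibitors, the TIMPs, were split. Of 25 metalloprotease and TIMP genes tested, 14 (56.0%, against 19.5% of all tested genes) were higher in Inf and 7 (28.0%, against 18.0%) in IL-4/13. Mmp3 (stromelysin) was at 22.4, 22.8 and 26.2 CPM under IL-4/13 against 1479, 1343 and 1302 CPM under Inf, 58-fold (8.39% of its 50-base stretches are shared with other transcripts), Mmp13 (a collagenase) at 1.18, 1.43 and 1.54 against 116, 108 and 101 CPM and Mmp9 (a gelatinase) at 15.5, 15.4 and 16.5 against 128, 119 and 111 CPM. Timp3 was at 54.3, 43.9 and 52.3 CPM under IL-4/13 against 24.1, 22 and 19.6 CPM under Inf and Timp2 at 915, 892 and 898 against 581, 595 and 581 CPM, while Timp1 was higher in Inf at 380.4, 375 and 392 CPM against 266, 264 and 259 CPM. The Adamts protease genes differed by member, with Adamts1 and Adamts5 2.87-fold and 2.08-fold higher in IL-4/13 and Adamts4 and Adamts7 3.43-fold and 3.4-fold higher in Inf.

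**Figure D4:**
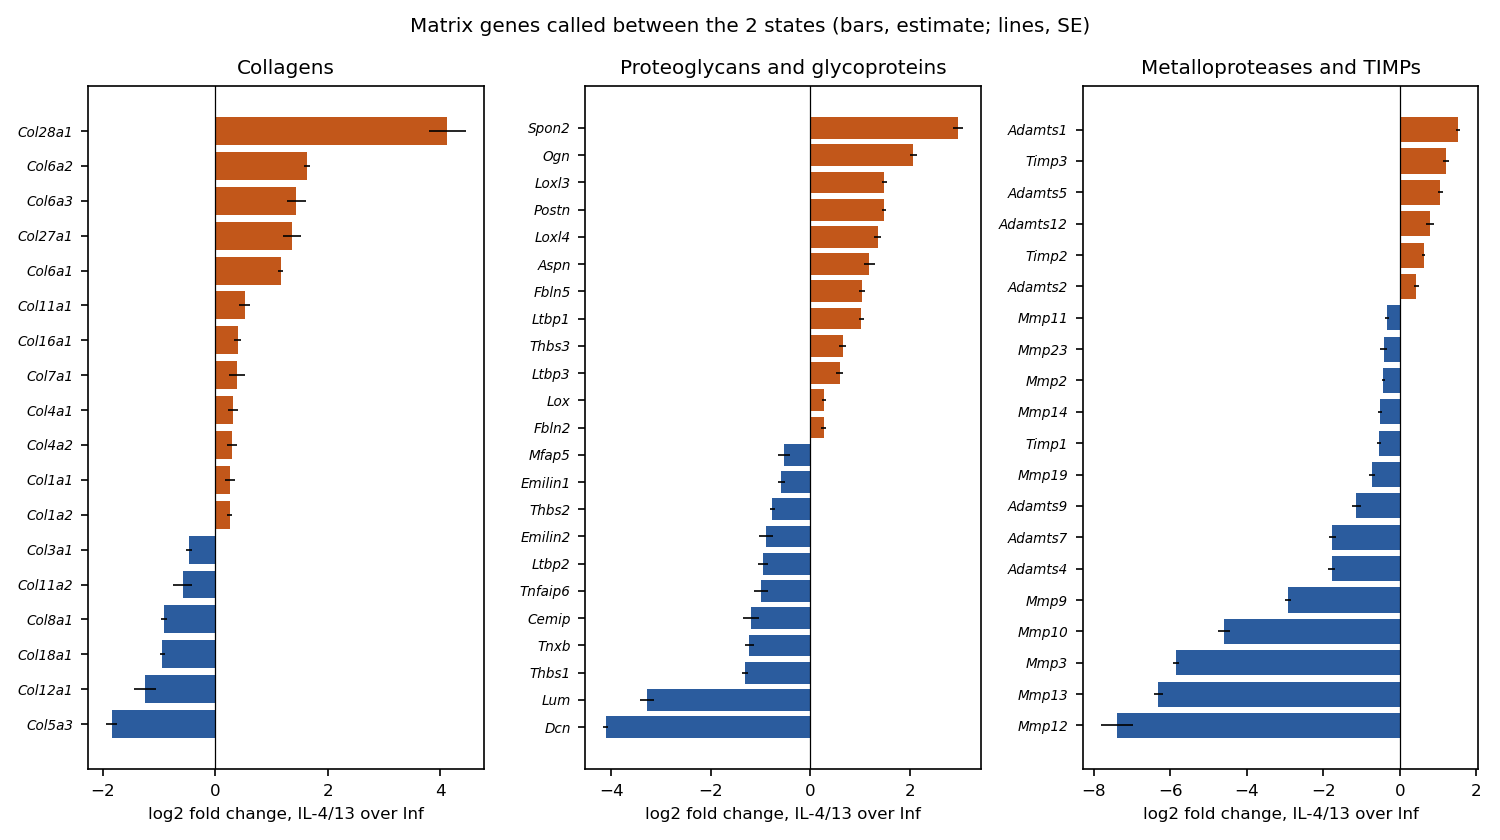
Bars give the log2 fold change of IL-4/13 over Inf (x axis) with its SE for the called genes (y axis) of 4 matrix lists that have at least 5 CPM in 1 of the states, in 3 panels with separate scales. Collagen VI, Spon2, Ogn, Adamts1 and Timp3 extend to the right, and Col5a3, Dcn, Lum and the Mmp genes to the left, as far as a fitted -7.39 for Mmp12, which had 2 counts in IL-4/13.

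Contractile genes were higher in IL-4/13 for 15 of 27 tested members (55.6%, against 18.0% of all tested genes) and higher in Inf for 2 (7.41%, below 19.5%). Vcl (vinculin), which couples actin to adhesions, was at 316, 302 and 320.3 CPM under IL-4/13 against 197, 191 and 152 CPM under Inf, Myl9 at 120.3, 124 and 126 against 73.6, 73 and 80.4 CPM, and Tpm1 at 996, 1019 and 989 against 641, 654 and 708 CPM. The control levels were 310.4 ± 21.2, 141 ± 12.1 and 1067 ± 3.4 CPM, near those of IL-4/13. Ccn2, a secreted factor of wound healing, was at 30.6, 29 and 27.7 CPM under IL-4/13, 12.3, 13.8 and 13.5 CPM under Inf and 17, 20.7 and 19.4 CPM in control. Tagln2 was among the exceptions at 521 ± 17.3 CPM under IL-4/13 and 835 ± 64.2 CPM under Inf. Of 11 adhesion molecules 3 (27.3%, near the 18.0% and 19.5% of all tested genes) were higher in each state. Mcam was at 42.2, 49.2 and 43.1 CPM under IL-4/13 against 12.8, 12.9 and 11.3 CPM under Inf and Vcam1, which arrests leukocytes, at 239, 237 and 221 against 554, 554 and 570.2 CPM. Icam1 had at most 3 counts in any of the 12 libraries.

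In the TGF-β, activin and BMP list 8 of 31 tested members (25.8%, against 18.0% of all tested genes) were higher in IL-4/13 and 13 (41.9%, against 19.5%) in Inf. The activin subunit genes were higher in IL-4/13, Inhbb at 134, 136 and 134 CPM against 26.8, 30.9 and 29.2 CPM and Inhba at 122, 126 and 113 against 48.8, 56 and 45 CPM. Fst (follistatin), which binds activin, was higher in Inf at 67.2, 82.7 and 81.8 CPM against 31.2, 32.1 and 31.1 CPM. The BMP antagonist Chrdl1 was the largest difference towards IL-4/13, whereas the BMP antagonist Grem1 was higher in Inf at 606 ± 28.6 CPM against 378 ± 18.3 CPM. Tgfbr2, the ligand-binding TGF-β receptor, was at 240.1, 229 and 238 against 117, 117 and 110.0 CPM and thus higher in IL-4/13, and Tgfb1 itself was higher in Inf at 58.6, 59.2 and 64 CPM against 33.7, 32.5 and 33.4 CPM.

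Within the insulin-like growth factor axis 8 of 16 tested members (50%) were higher in IL-4/13 and 3 (18.8%, near the 19.5% of all tested genes) in Inf. Igf1, the growth factor, was at 42.2, 44.9 and 49.1 CPM under IL-4/13, 34.1, 30.6 and 32.2 CPM in control and 7.51, 7.79 and 6.18 CPM under Inf, 6.3-fold higher in IL-4/13. Igfbp3, its main carrier in blood, was at 3.21, 4.08 and 3.9 CPM under IL-4/13 against 44.9, 42.2 and 44.7 CPM under Inf, 11.9-fold higher in Inf, with 106 ± 1.39 CPM under IL-4/13 + Inf. Igfbp5 was higher in IL-4/13 at 7.98, 6.29 and 9.56 CPM against 3.59, 2.87 and 1.7 CPM and Igfbp7 was higher in Inf at 815, 709 and 833 CPM against 399, 432 and 473 CPM. Among Wnt genes, 5 of 22 tested (22.7%, near the 18.0% of all tested genes) were higher in IL-4/13 and 7 (31.8%) in Inf, and without IL-4/13 replicate 3 the first count was 3. The receptor gene Fzd4 was at 31.7, 29.2 and 29.5 CPM under IL-4/13 against 5.38, 6.57 and 4.97 CPM under Inf, 5.3-fold higher in IL-4/13. Ccn5, a secreted matrix-associated protein, was higher in Inf at 30.4, 29.6 and 28.8 CPM against 7.34, 5.96 and 8.31 CPM.

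Of 22 tested adipogenic regulators and adipocyte genes, 8 (36.4%) were higher in IL-4/13 and 9 (40.9%) in Inf. The early regulators Cebpb and Cebpd were higher in Inf, Cebpb at 64, 53.5 and 71.2 CPM against 15.5, 15.7 and 20 CPM under IL-4/13 and Cebpd at 366, 282 and 341 against 30.1, 33.1 and 37.8 CPM, 9.85-fold. Pparg, the later master regulator, was higher in IL-4/13, as was Dlk1, a marker of preadipocytes, at 1142, 1132 and 1094 CPM against 801, 730.0 and 789.6 CPM under Inf and 1650.5, 1552 and 1691 CPM in control. Dgat2, the last enzyme of triglyceride synthesis, was higher in Inf at 36.8, 34.3 and 31.9 CPM against 6.86, 5.25 and 5.95 CPM under IL-4/13. Of 33 tested genes of sterol and fatty acid synthesis, 28 were not called and 4 (12.1%, below the 19.5% of all tested genes) were higher in Inf. Only 1 (3.03%, below 18.0%), Acaca, was higher in IL-4/13, at 79, 80.8 and 86.4 CPM against 70.4, 72.4 and 60.6 CPM. Without Inf replicate 1 that count was 2, and Acaca was not called without IL-4/13 replicate 3 (log2 difference 0.23) or Inf replicate 3 (0.19), and 52.6% of the 50-base stretches of Acaca are shared with other transcripts.

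Glycolysis and hypoxia genes were a broad and shallow difference. Of 30 tested, 26 (86.7%, against 19.5% of all tested genes) were higher in Inf and 1 (3.33%, below 18.0%), Pfkfb4, in IL-4/13. The median log2 difference was -0.64. Slc2a1, the glucose transporter GLUT1, was at 222, 223 and 230.1 CPM under IL-4/13 against 355, 343 and 343 CPM under Inf, Ldha, the lactate dehydrogenase subunit, at 1664, 1742 and 1692 against 2509.9, 2564 and 2648 CPM, and Hif1a at 364, 344 and 361 against 701, 726 and 699 CPM. Epas1, which encodes HIF-2α, had the largest difference of the list, at 3.32, 3.56 and 5.15 CPM under IL-4/13 against 23.9, 18.9 and 17.2 CPM under Inf. Subunits of the respiratory chain differed little, with 35 of 38 tested not called and 3 (7.89%, below the 19.5% of all tested genes) higher in Inf. None was higher in IL-4/13 by edgeR or DESeq2, and 7 were higher there at an unadjusted p below 0.05. Without Inf replicate 2 the count of respiratory chain genes higher in Inf was 6.

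Metal and redox genes were higher in Inf for 15 of 25 tested members and higher in IL-4/13 for 1, the iron exporter Slc40a1, at 13, 11.5 and 13 CPM against 7.51, 9.06 and 6.55 CPM. Sod2, the mitochondrial superoxide dismutase, was at 67.1, 68.7 and 67 CPM under IL-4/13 against 601, 553 and 583 CPM under Inf, 8.56-fold, Fth1, the ferritin heavy chain, at 1658, 1631 and 1684 against 5421, 4753 and 5098 CPM and the metallothionein Mt1 at 71.4, 63.5 and 73.7 against 302, 282 and 319 CPM. Slc11a2, an iron importer, was at 83.8, 79.4 and 77.8 against 283, 274 and 259.6 CPM. Genes of the unfolded protein and integrated stress responses leaned to IL-4/13, with 12 of 29 (41.4%, against 18.0% of all tested genes) higher there and 3 (10.3%, below 19.5%) in Inf. The serine and asparagine synthesis genes Psat1, Phgdh and Asns were 1.54-fold, 1.45-fold and 1.45-fold higher in IL-4/13, and the chaperone gene Hspa5 was also called higher in IL-4/13, at 984 ± 14.7 against 815 ± 20.5 CPM, but not without Inf replicate 1 (log2 difference 0.245). Without Inf replicate 2 the count of these stress genes higher in Inf was 5.

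Cell cycle genes were higher in IL-4/13 almost throughout and by small steps. Of 44 DNA replication genes 38 (86.4%) and of 45 mitosis genes 44 (97.8%) were higher in IL-4/13, with median log2 differences of 0.47 and 0.50, and no mitosis gene was higher in Inf by edgeR, by DESeq2 or at an unadjusted p below 0.05. The cyclin gene Ccna2 was at 277, 266 and 277 CPM under IL-4/13, 235, 257 and 242 CPM in control and 165, 149.6 and 157 CPM under Inf. The helicase subunit gene Mcm6 was at 231, 231 and 219.9 CPM under IL-4/13, 211, 214 and 208 CPM in control and 140.3, 142 and 141 CPM under Inf, and the topoisomerase gene Top2a at 415, 414 and 395 against 268, 288 and 249 CPM. Tyms, which makes thymidylate, was the single listed gene called towards Inf, at 84.3, 80.7 and 77.5 CPM under IL-4/13 against 108, 105 and 123 CPM under Inf, and 8.01% of its 50-base stretches are shared with other transcripts. Summed over the mitosis list the levels were 5640 to 5754 CPM under IL-4/13, 5033 to 5246 CPM in control, 3929 to 4140 CPM under Inf and 4695 to 4784 CPM under IL-4/13 + Inf.

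**Figure D5:**
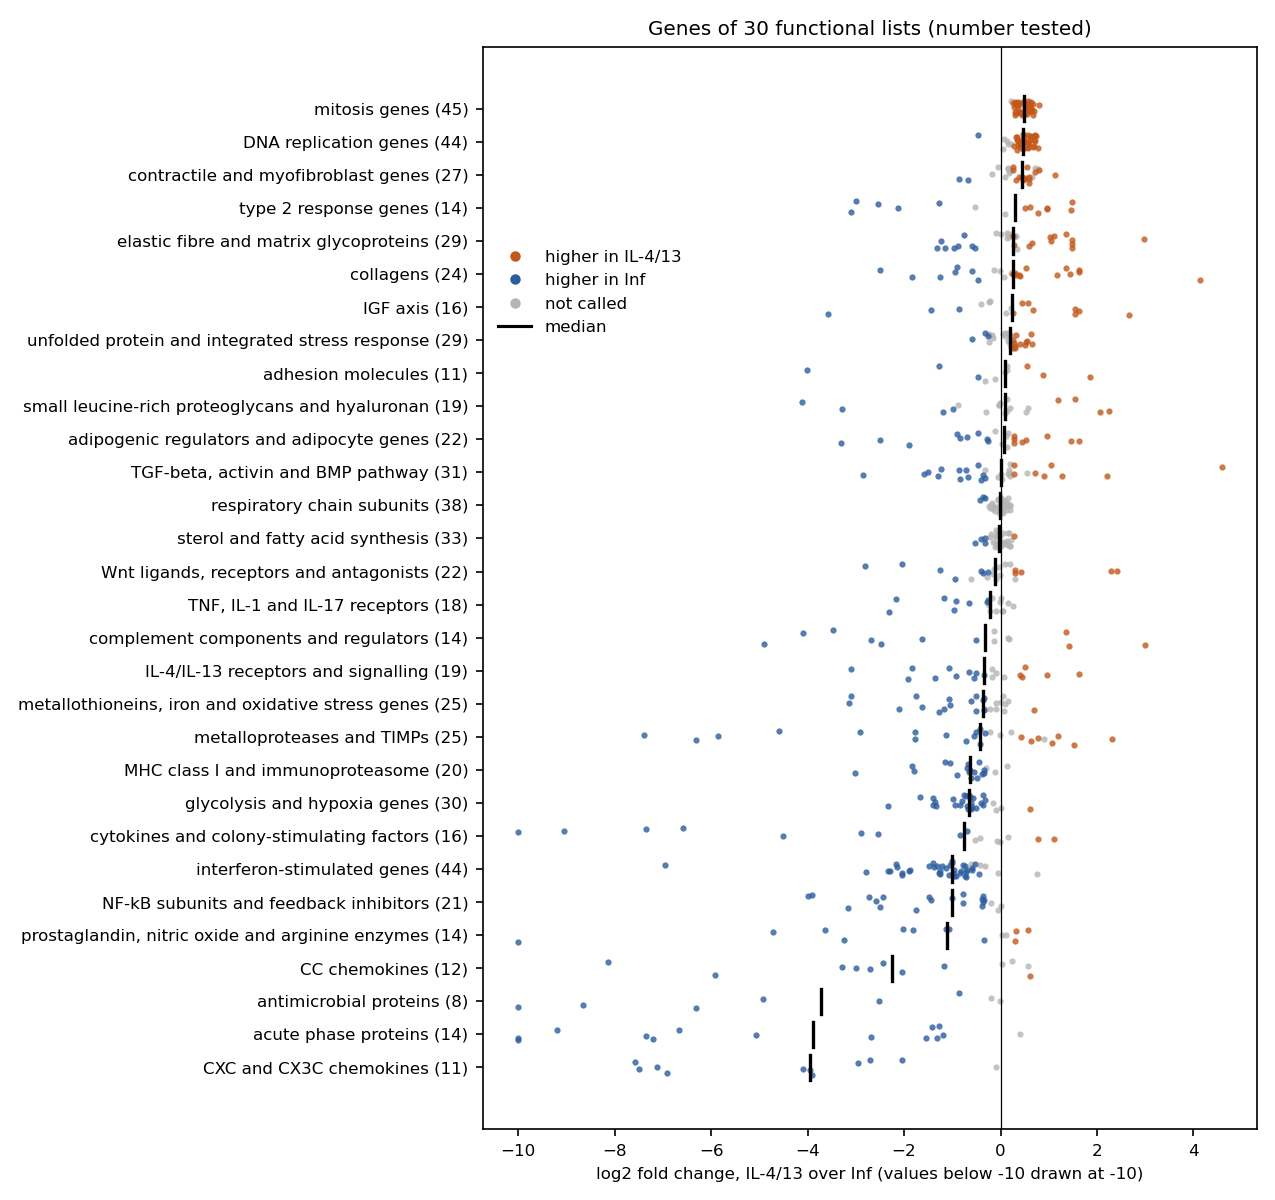
Each point is a gene of 1 of 30 functional lists (y axis, number of tested genes in parentheses), placed by its log2 fold change of IL-4/13 over Inf (x axis, values below -10 drawn at -10), with called genes in colour and a black bar at the list's median. Mitosis and DNA replication genes sit right of zero in a narrow band, and chemokine, acute phase and antimicrobial genes spread far to the left.

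Some genes were present in 1 state and at or under 3 counts in every library of the other. With at least 20 counts asked of each library of the higher state, 3 genes were of this kind in IL-4/13 and 31 in Inf. The 3 were Sprr1a, the ribonuclease gene Ang3 and Il31ra, a chain of the receptor for the itch cytokine IL-31. Ang3 stood at a mean of 2.50 ± 0.355 CPM (SD, n = 3) in IL-4/13, 0.502 CPM in control and 0 CPM under Inf, and Il31ra at 1.98 ± 0.358 CPM under IL-4/13, 0.706 CPM in control and 0.0911 CPM under Inf. The 31 included, besides those already named, the inflammasome gene Nlrp3 at a mean of 3.46 ± 0.612 CPM under Inf, the pattern receptor gene Clec4e at 2.69 ± 0.393 CPM, the T cell costimulatory ligand gene Icosl at 4.18 ± 0.168 CPM and the interferon-induced Ifitm1 at 3.51 ± 0.481 CPM. Their IL-4/13 means were 0.0179, 0.0677, 0.117 and 0.0245 CPM.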

How the data were processed

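Polyadenylated RNA of 3T3-L1 cells was sequenced from stranded libraries, 3 per condition. The authors' deposited table holds raw gene counts, made per the labels with STAR and featureCounts on GRCm39 (versions, annotation and strand setting not given in the sources used here). Of the 56941 genes counted, 14810 passed filterByExpr and were tested with edgeR 4.0.16 in R 4.3.3 (TMM, robust quasi-likelihood fit of all 12 libraries with 8 residual degrees of freedom, Benjamini-Hochberg adjustment), and the contrast was IL-4/13 minus Inf. SE is the log2 difference divided by the root of its F. Symbols were those of the deposited counts, with a names table used where a symbol was missing or repeated. Of the tested genes 133 had none. On simulated counts with 200 genes changed by log2 1, 14549 genes were tested in all. The share of changed genes recovered, not taken over all 200, was 87.2%, and 4 unchanged genes were called. Count ratios carry 95% exact intervals for counting error only. Libraries of a state differed by more than counting error. The chi-square per degree of freedom between 2 libraries was 2.72 to 3.41 in IL-4/13 and 4.96 to 9.4 in Inf. The fit gave all conditions 1 shared spread per gene.

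Gene lists, members and named genes were chosen with earlier results of these data known. Named genes were the 12 largest differences each way at a mean of at least 5 CPM, chemokine, antimicrobial and matrix genes that the study names, up to 3 called members per list and direction, and members needed to describe a list. The genes named as present in 1 state alone, and members named outside this rule, were chosen after their values were seen. A floor of 3 counts per library was used for genes without counts. Alternatives were DESeq2 1.42.0, other scaling, filters, thresholds, a replicate block, the 6 libraries alone and leaving out each library.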

Additional observations from a re-analysis of the deposited data

How the results depend on the processing

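No called gene among those named and no list count turned its direction under DESeq2, other scalings, filters or thresholds, the 6 libraries alone, a replicate block or leaving out any 1 library. Genes higher in IL-4/13 and in Inf numbered 1071 and 1741 at a log2 limit of 0.5 and 312 and 845 at a limit of 1, by construction of the stricter limit. Leaving out a library gave 2469 to 2711 and 2637 to 2915. The replicate block gave 2641 and 2799, and of the named genes the block changed the call of Col1a1 alone (adjusted p 0.0525 by edgeR). Over all tested genes, same-numbered libraries of the 2 states did not deviate together (correlations -0.00938, 0.0085 and -0.0422). They were not paired in the main fit. The interferon-stimulated genes differed from this. Replicate 2 was the lowest of its group for 35 of the 39 called genes in IL-4/13 and for 36 in Inf. Whether same-numbered libraries had a common origin was not tested. Scaling by library size alone gave 2977 and 2626, so that 53.1% of calls were higher in IL-4/13 in place of 48.1%. Genes present in IL-4/13 or Inf alone numbered 9 and 59 when 10 counts were asked of the higher state and 1 and 12 when 50 were asked. With a mean of at least 50 counts required, 7 list counts fell and 1, that of stress response genes higher in Inf, rose by more than 1.5 times, and Col1a1, Col1a2, Hspa5 and Acaca were not called. Col1a1 was also lost with no filter and Col1a2 with the 6 libraries alone. Of genes not called, the log2 difference of Has2 turned from -0.022 to 0.0078 with library size alone and ran from -0.056 to 0.021 when a library was left out. That of Il17ra turned from 0.0066 to -0.018 with the 50-count filter and ran from -0.082 to 0.087 when a library was left out, and that of Ccl25 ran from -0.084 to 0.13 around 0.032. The causes were not tested. Depth limits what can be said of genes at a few counts.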
